A study of Homo sapiens with 267 samples.

Results

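Single-cell libraries of K562, an established human myelogenous leukaemia line with erythroid features, were compared within 1 sequencing run by how far their reads were concentrated on few genes. The run was the one in which cells treated with benzene carried CellTracker Orange and untreated cells carried CellTracker Green, and libraries of both dyes entered. Of its 71 libraries with counts, 3 were dropped because 10000 or more genes had more than 2 reads, and 68 of the 263 libraries with counts in the series remained. The 2 groups were chosen by a measured value, the percent of reads on genes that fell in the library's own 500 most abundant genes. Above 60% a library was called low complexity (30 libraries, 17 Green and 13 Orange), and at or below 60% high complexity (38 libraries, 18 Green and 20 Orange).

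All cells of the run were K562, at passages given as 20 to 22, stained for 30 min with 1 µM CellTracker dye and also with a red dead-cell stain. The Orange cells had also been exposed to 10 mM benzene for 3 hours, so that dye and drug cannot be told apart. RNA was captured and reverse transcribed in a microfluidic single-cell instrument with full-length cDNA chemistry, and ERCC spike-in RNA was counted with each library. The series is about storing cells fixed with the reversible crosslinker DSP before sequencing, but the labels of this run do not say which libraries came from fresh or fixed cells, or whether a capture site held 1 cell, several or none. Every library is 1 capture site, the labels name no separate cultures within a dye, and libraries are not taken as replicates of a condition. The groups were set on the same reads as every gene's share, so all differences below are descriptions and no test was made.

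Library complexity describes how many different transcripts of a cell survive lysis, reverse transcription and amplification into the sequenced cDNA. When few molecules are captured, a transcript is either missed or amplified to a high level, and reads gather on abundant RNAs. Mitochondrially encoded RNAs, made inside the organelle, and messages of ribosomal proteins are among the most abundant in proliferating cells, and their shares are often read as signs of cell state or damage.

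The limit cut through a continuous distribution. The 3 libraries nearest below it were at 59.7%, 59.8% and 59.9% and the 3 nearest above it at 60.04%, 60.17% and 60.3%, and 15 of the 68 libraries lay within 1 percentage point of 60%. In the high-complexity group the share ran from 45.9% over a median of 55.4% to 59.9%. In the low-complexity group 24 libraries lay between 60.04% and 69.8%, 2 had 70.02% and 75.1%, and 4 Green libraries stood apart at 90.2%, 92.2%, 93.3% and 97.0%. Low-complexity libraries made up 17 of 35 Green (48.6%, 95% exact binomial interval 31.4 to 66.01) and 13 of 33 Orange libraries (39.4%, 22.9 to 57.9), intervals that overlap and cover counting error only. Without the libraries over 70% the counts were 12 of 30 and 12 of 32.

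The 4 Green libraries over 90% had 328281 to 612241 reads on genes, 1410 to 2295 genes at more than 2 reads, and 24.9% to 52.996% of all counts on ERCC sequences. The other libraries of both groups had at least 1040093 reads. In 3 of the 4 (title numbers 23, 27 and 33) the leading genes were mitochondrial, with 33.4%, 43.1% and 47.2% of reads from the mitochondrial genome and MT-ND4, a subunit of respiratory complex I, at 6.48%, 8.78% and 7.77%. The fourth, number 34, had 1.19% mitochondrial reads, and its 17 genes at 1% or more of reads were all nuclear, led by RPL7L1 at 1.97%, M6PR at 1.90% and ETV4 at 1.89%. Several results that rest on these libraries are also given without them. All 4 are Green, so expression values within Green, and calls that need both dyes, include them unless stated.

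**Figure D1:**
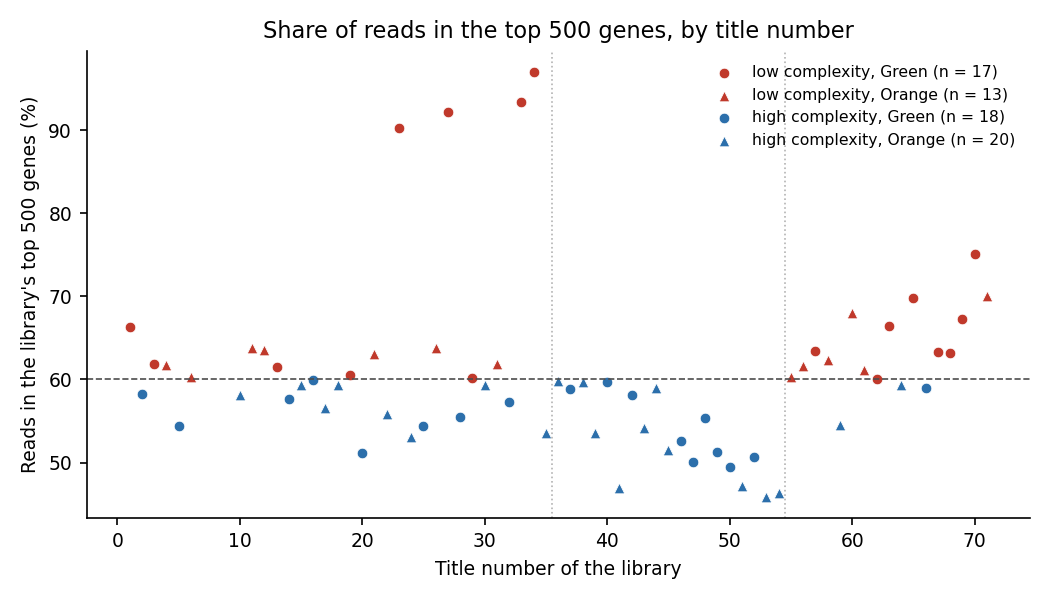
Percent of reads in each library's top 500 genes (y axis) against the number in its title (x axis), for 68 libraries of the run. Colour marks the complexity group and shape the dye, the dashed line is the 60% limit and dotted lines separate numbers 1 to 35, 36 to 54 and 55 to 71. All 19 libraries of the middle stretch lie under the limit, while 14 of 17 in the last stretch lie above it.

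The groups were not spread evenly over the numbers in the library titles, whose meaning the labels do not give. Among numbers 1 to 35, 16 of 32 libraries were of low complexity and stood between libraries of high complexity. Among numbers 36 to 54, 0 of 19 were, and among numbers 55 to 71, 14 of 17 were. The 3 high-complexity libraries of the last stretch had 54.51%, 59.3% and 59.02% of reads in their top 500 genes. Both dyes occurred in every stretch, with 17 Green and 15 Orange, 9 and 10, and 9 and 8. The ends of these stretches were chosen after the values had been seen. Numbers 1 to 35 are the only ones in which the groups are of like size, and numbers above 35 compare mostly one stretch with another, so results are also given within numbers 1 to 35 and within 36 to 71.

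Marker genes were checked first. Of 10 genes typical of K562, among them PRAME, a tumour antigen, the erythroid regulator GATA1, and the embryonic and fetal globins HBE1, HBG1, HBG2 and HBZ, a high-complexity library held 9 to 10 (median 10) and a low-complexity library 6 to 10 (median 9). PRAME, HBG1, HBG2 and UROD, an enzyme of heme synthesis, were found in 68 of 68 libraries. The erythroid regulator TAL1 was found in 36 of 38 high-complexity, 20 of 30 low-complexity and 0 of the 4 libraries over 90%. Of 24 marker genes of other cell types, 15 had no read in the high- and 17 in the low-complexity group, and all 24 together took at most 0.0668% and 0.0752% of a library. The T-cell genes CD3E and CD2, the B-cell genes MS4A1 and CD79A and the endothelial gene CDH5 had 0 reads, while LYZ (36 of 68 libraries), EPCAM (50) and CD3D (24) were found at low levels.

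Spike-in reads did not enter the rule. ERCC sequences took a median of 3.72% of all counts in high-complexity libraries (lowest 2.06%, highest 7.26%) and 5.97% in low-complexity libraries (2.76% to 52.996%), or 5.43% (2.76% to 9.68%) in those up to 70%. The ranges overlapped. Within numbers 1 to 35, the medians were 3.32% (2.06% to 5.002%, n = 16) and, up to 70%, 3.98% (2.76% to 7.65%, n = 12). Numbers 36 to 54, all of high complexity, ran from 2.77% to 5.30%. In numbers 55 to 71 the low-complexity libraries ran from 5.36% to 10.4%, and the 3 high-complexity libraries had 4.86%, 7.26% and 6.19%, 2 of which lie in that range. The spike-in share thus followed the stretch of numbers as well as the group. A higher ERCC share means fewer reads from cell RNA for each spike-in read, and less RNA in the cell, loss of RNA and poorer capture cannot be told apart here.

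The makeup of the spike-in reads themselves differed little. After thinning each library to 20000 ERCC reads, 30 ERCC sequences (median) were found in both groups, with ranges of 24 to 36 in the high- and 26 to 38 in the low-complexity group. Over the 16 sequences that took at least 0.5% of ERCC reads, the log2 ratio of mean shares between low and high complexity ran from -0.10 to 0.65 with a median of 0.09, and 0 reached 2-fold. The median coefficient of variation over libraries was 0.56 in the high- and 0.50 in the low-complexity group.

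**Figure D2:**
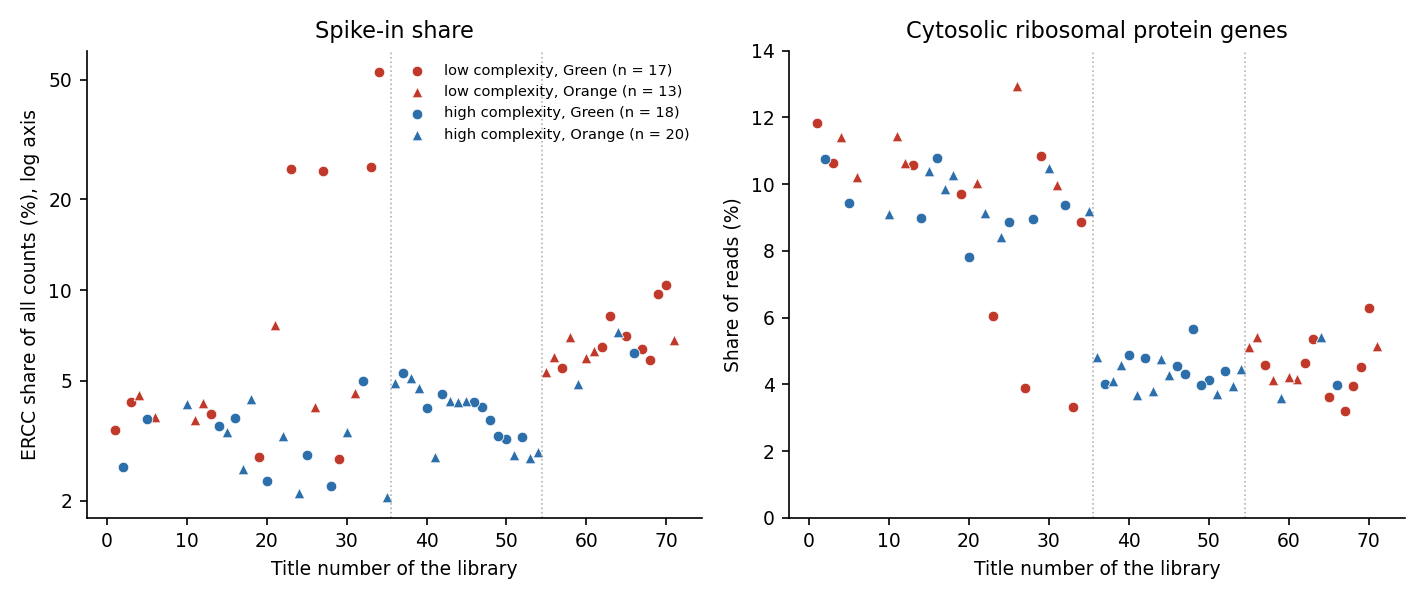
ERCC share of all counts (left, percent, log axis) and share of reads on cytosolic ribosomal protein genes (right, percent) against the title number, for the same 68 libraries, with colour for the complexity group and shape for the dye. The ERCC share is 5.36% or more in all low-complexity libraries above number 54, and in libraries up to 70% the ribosomal protein share is at least 7.82% up to number 35 and at most 5.67% from number 36 on.

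Genes that passed the filter, a mean of at least 20 counts per 1000000 reads on genes (CPM) and more than 2 reads in at least 20% of the libraries, numbered 6213. The main pattern was that a gene was found in fewer low-complexity libraries but, where found, at a somewhat higher level. This pattern is not independent of the rule that made the groups. The share that set them had a Pearson r of -0.939 with the number of genes found in a library (n = 68). Lower detection in the low-complexity group is thus largely built into the grouping. The level where found comes from the same reads, and the part of the rule in it was not tested. At 300000 reads per library the median gene was found in 60.5% of high-complexity and 40% of low-complexity libraries, and 5544 of the 6213 genes were found less often in the low-complexity group. The level where found was taken from the full counts, not the thinned ones. It was higher in the low-complexity group for 3824 of 6196 genes found in at least 3 libraries of each, with a median log2 ratio of 0.19. The 4 libraries over 90% had fewer reads, so that more than 2 reads was a higher CPM in them. The part of depth in this level was not tested. The gap in detection was 26.7% against 42.1% of libraries for genes at a mean CPM of 20 to 50 and 60% against 81.6% at 100 to 200, and closed to 100% in both groups at 1000 or more. The 2 ways of averaging therefore gave different pictures. The median log2 ratio of mean CPM was -0.14 (59.2% of genes lower), and the median difference of mean log2(CPM + 1) was -0.90 (90.95% of genes lower), or -0.08 and -0.58 with the low-complexity libraries up to 70% only. Reads were also summed per dye and group and scaled by trimmed mean of M values (TMM). The median log2 ratio was then 0.08 within Green and 0.04 within Orange, against -0.27 and -0.16 for unscaled mean CPM over libraries. Summing and scaling changed together and are not told apart here. A change of the median gene thus depends on how libraries are combined and scaled, and log2 ratios below are to be read against these medians.

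**Figure D3:**
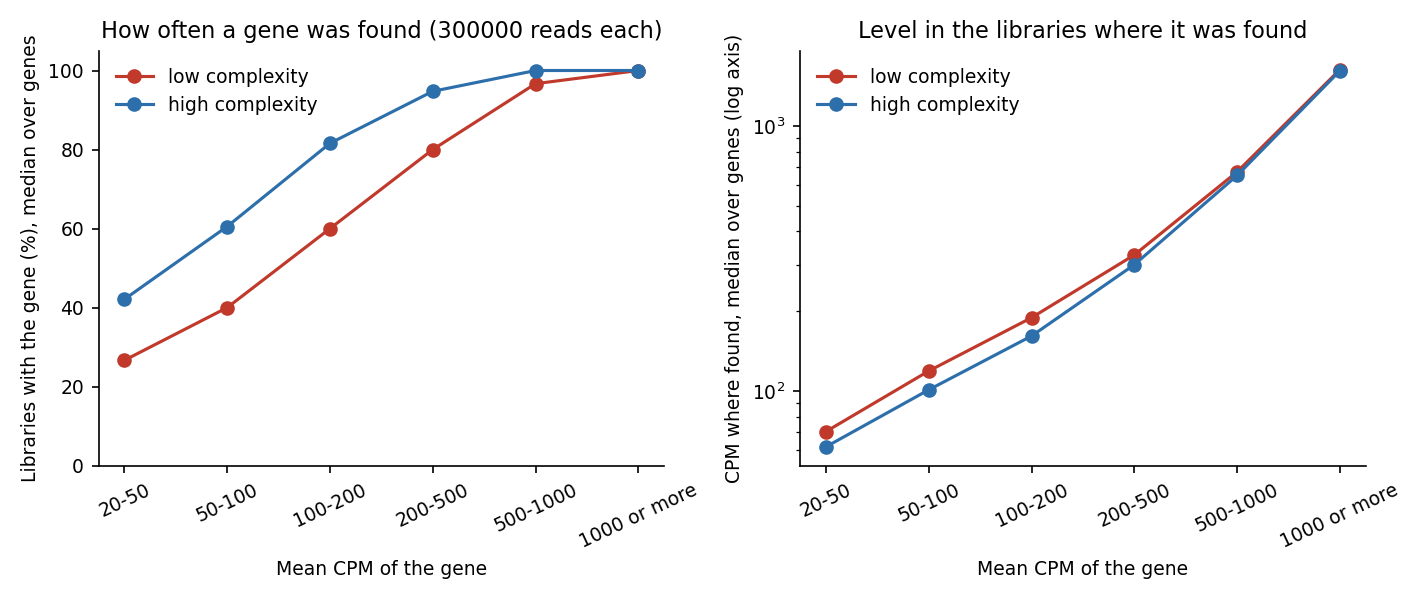
Percent of libraries in which a gene was found at 300000 reads (left), for low (red) and high complexity (blue). The right panel gives CPM in the libraries where it was found in the full, unthinned counts (log axis). Both are medians over genes grouped by mean CPM. Detection is lower in the low-complexity group up to 1000 CPM, and the level where found is higher in that group, by less than the step between neighbouring bins.

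Levels also varied more from library to library in the low-complexity group. At equal depth the coefficient of variation of the median gene was 1.35 against 0.914 for genes at a mean CPM of 200 to 500, and 0.696 against 0.494 at 1000 or more. With libraries up to 70% the low-complexity values were 1.16 and 0.568, and within numbers 1 to 35 the pairs were 0.881 against 0.748 and 0.319 against 0.299. It was larger in the low-complexity group for 5362 of 6212 genes, for 4677 with libraries up to 70%, for 3879 of 6192 within numbers 1 to 35 and for 4462 of 6165 within numbers 36 to 71 (both up to 70%, in groups of unequal size). With low-complexity libraries up to 70%, libraries of numbers 1 to 35 were more alike than those of higher numbers in both groups. Over 979 genes at a mean CPM of 200 or more, the median Spearman rho between libraries of numbers 1 to 35 was 0.58 within both groups and 0.56 between them. Within numbers 36 to 71 it was 0.38 among high- and 0.31 among low-complexity libraries, and between the number sets it was 0.31. The 4 libraries over 90%, all of numbers 1 to 35, had a median of 0.33 with one another (0.26 to 0.38).

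By the fold rule, 131 genes were at least 2-fold higher (2.11% of those tested) and 473 at least 2-fold lower (7.61%) in low- than in high-complexity libraries within both dyes. The rule that made the groups used the same reads, and nothing is read from these shares. With TMM scaling of reads summed per dye and group the counts were 229 and 327, which moves the higher genes from 21.7% to 41.2% of the calls. A further 510 genes were 2-fold apart in opposite directions in the dyes, and across the 6213 genes the log2 ratios within Green and within Orange had a Spearman rho of 0.01, a value across genes of libraries that share their run. The called genes were of low abundance, with a median mean CPM of 44.02 for the higher and 42.4 for the lower genes against 63.3 for all, and 0 of the 300 genes at a mean CPM of 500 or more were called. With 1 library left out, the ratio over both dyes pooled was under 2-fold for 67 of the 131 higher genes and 59 of the 473 lower genes. The ratios within each dye were not recomputed, so these are not counts of calls lost. With the dyes pooled into 1 ratio, 618 of the 6213 genes were 2-fold higher and 1296 lower within numbers 1 to 35 (up to 70%). Within numbers 36 to 71 (up to 70%) 915 and 1624 were. These counts do not ask for 2-fold in both dyes and are not comparable with the 131 and 473. Within 1 dye alone, 848 genes were 2-fold higher and 1660 lower in Green, and 687 and 1462 in Orange.

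Mitochondrially encoded genes had the largest single gains in share. All 15 mitochondrially encoded genes measured, the 13 subunits of the respiratory chain and ATP synthase and both ribosomal RNAs, had a higher mean share in the low-complexity group in both dyes and both number sets. Together they took a median of 5.95% of reads in the high- (0.615% to 12.1%) and 7.04% in the low-complexity group (0.483% to 47.2%). The means were 6.003% and 11.2%, a difference of 5.19 percentage points (SD over libraries 7.92). It was 2.12 without the 4 libraries over 90% and 3.95 when Green 33 alone was left out. The median log2 ratio of the list was 0.95, or 0.48 within numbers 1 to 35 and 0.49 within numbers 36 to 71 with libraries up to 70%, and 0 of 15 were called. Over all genes 2.11% were called higher and 7.61% lower. The 2 groups overlapped throughout. Medians did not all follow the means within numbers 36 to 71 (up to 70%). There the low-complexity median was lower for MT-CO2 (10071 against 10224 CPM), MT-CO3 (5542 against 5615), MT-CYB (6322 against 7818) and MT-ND1 (1735 against 1934). It was higher for MT-ND4, MT-CO1, MT-ATP6, MT-ND2 and MT-ND5.

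MT-ND4, on the mitochondrial chromosome at 10760 to 12137 (GRCh37), ran from 1017 over a median of 9874 to 19937 CPM in the high- and from 99.1 over 12969 to 87790 CPM in the low-complexity group, a log2 ratio of 0.97 that was 0.42 with libraries up to 70%. In numbers 1 to 35 the ranges were 2975 to 15486 CPM in the high- and 8363 to 19391 CPM in the low-complexity group up to 70%. MT-CO1 (5904 to 7445), the catalytic subunit of cytochrome oxidase, had medians of 3815 and 5941 CPM and a log2 ratio of 1.02, or 0.46 up to 70%. MT-CO2, MT-CO3, MT-CYB, MT-ATP6, MT-ND1, MT-ND2 and MT-ND5, the other mitochondrial messages with the largest gains, had log2 ratios of 0.79 to 1.02, and of 0.31 to 0.59 up to 70%.

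Genes that took at least 1% of a library's reads numbered 36 over all libraries, 11 mitochondrial and 25 nuclear. A high-complexity library had 0 to 5 of them (median 1.5) and a low-complexity library 0 to 17 (median 4). FTL, the ferritin light chain that stores iron, was the commonest nuclear one, in 11 low- and 7 high-complexity libraries. ALDOA and ENO1, enzymes of glycolysis, and EEF1A1, the translation elongation factor, also passed 1% in both groups. The other 21 nuclear genes passed it only in low-complexity libraries, 20 of the 25 in 1 library each, and 19 only in the 4 libraries over 90%.

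Part of the concentration lay on genes common to K562 libraries and part on genes particular to a library. A fixed list of 500 genes, those most abundant on average over both dyes of the imatinib run (untreated and imatinib-treated K562), which did not enter the rule, took a median of 41.3% of reads in high- and 47.5% in low-complexity libraries. Genes of a library's own top 500 outside that list took 16.9% and 24.6%. Within numbers 1 to 35, with libraries up to 70%, these medians were 46.9% and 50.5% for the fixed list and 13.3% and 16.003% for genes outside it. A low-complexity library had a median of 36 top genes that were in the top 500 of no other of the 68 libraries, against 20.5 in a high-complexity library, and they took 3.02% and 1.39% of reads. Within numbers 1 to 35 the median number was 15.5 against 7, and within 36 to 71 it was 48.5 against 27.

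Cytosolic ribosomal protein genes, which build the ribosome's 2 subunits, were set apart by title number. In the 62 libraries up to 70% their summed share was at least 7.82% in all 28 libraries numbered 1 to 35 and at most 5.67% in all 34 libraries numbered 36 to 69. Within numbers 1 to 35 the share ran from 7.82% over 9.28% to 10.8% in high- and from 9.71% over 10.6% to 12.96% in low-complexity libraries up to 70%, and 71 of 78 members had a higher mean there. Within numbers 36 to 71 the medians were 4.29% and 4.38%, and 38 members were higher and 40 lower. The pooled difference of 0.707 percentage points (SD over libraries 2.92) was -0.0688 within Green, 1.67 within Orange and 0.968 without the libraries over 90%, so its direction was not the same in both dyes. RPS18 (chromosome 6, 33239852 to 33244288), a protein of the small subunit and the only nuclear gene among the 10 largest gains in share of protein-coding and lncRNA genes, had medians of 1938 and 2877 CPM. In numbers 1 to 35 it ran from 2813 to 4540 CPM in the high- and from 3703 to 5665 CPM in the low-complexity group (log2 ratio 0.34), and in numbers 36 to 71 the log2 ratio was 0.04. RPLP0, the stalk protein of the large subunit, had means of 4393 ± 2449 CPM (SD, n = 38) and 4410 ± 3002 CPM (n = 30).

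Gene length and base composition went with the number sets too. Nuclear genes with exons of at most 1500 bases took 8.70% to 13.03% of reads in libraries 1 to 35 and 4.94% to 7.39% in libraries 36 to 71, both up to 70%, and those over 6000 bases 22.3% to 33.6% and 35.3% to 45.7%. Within numbers 1 to 35 (up to 70%) the median log2 ratio of low to high complexity went from 0.11 for genes with exons under 1000 bases to -0.30 at 6000 bases or more, and within 36 to 71 it was -0.03 and -0.16. With GC content the order turned round. Genes under 40% GC had a median log2 ratio of -0.35 within numbers 1 to 35 and 0.03 within 36 to 71, and genes of 60% GC or more had 0.02 and -0.35. Whether length or GC has a part in the gene ratios was not tested.

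Genes of the G1/S phase and DNA replication had a lower summed share in low-complexity libraries in the median. Of 37 of them that passed the filter, out of 44, 29 had a lower and 8 a higher mean CPM in the low-complexity group, with a median log2 ratio of -0.37 and 1 called lower. Over all genes 59.2% were lower, 7.61% were called lower and the median was -0.14. Their summed share had a median of 0.758% (0.343% to 1.38%) in high- and 0.596% (0.0201% to 1.16%) in low-complexity libraries, ranges that overlap. The median log2 ratio was -0.57 within numbers 1 to 35 and -0.46 within 36 to 71 with libraries up to 70%. MCM7 (chromosome 7, 99689856 to 99699563), a subunit of the replicative helicase, led the 10 losses of share that were in the same direction in both dyes. It ran from 175 over 1318 to 4589 CPM in high- and from 5.01 over 710 to 3562 CPM in low-complexity libraries. Its log2 ratio was -1.09 within numbers 1 to 35 and -0.11 within 36 to 71. FEN1, a flap nuclease of replication, was found in 37 of 38 high- and 21 of 30 low-complexity libraries, with means of 433 ± 467 and 204 ± 474 CPM.

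Among 45 genes of G2/M and mitosis, 36 had a lower mean CPM and 9 a higher one, with a median log2 ratio of -0.43 and 1 called lower. Over all genes 59.2% were lower and 7.61% were called lower. Lower means were found for 39 of 45 within numbers 1 to 35 (median -0.56) and for 21 of 45 within numbers 36 to 71 (median 0.08), both up to 70%, so the direction differed between the number sets. TOP2A, a topoisomerase of dividing cells, had a log2 ratio of -0.49 that was -0.99 within numbers 1 to 35 and 0.08 within 36 to 71. HMGB2, a chromatin protein, had a log2 ratio of -0.10.

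Erythroid regulators and membrane genes had a median log2 ratio of -0.24 over 16 genes, with 10 lower and 6 higher, and it was -0.28 and -0.24 within the number sets (up to 70%). Over all genes 59.2% were lower, a share near that of this list. The medians of all genes were -0.14, and -0.17 and -0.13 within the number sets. RHAG (chromosome 6, 49572888 to 49604552), the ammonium channel of the Rh complex, was picked as one of the 10 largest losses of share. It ran from 308 over 1047 to 2379 CPM in high- and from 3.31 over 471 to 2066 CPM in low-complexity libraries. All 38 high-complexity libraries held it and 29 of 30 low-complexity libraries did. Its log2 ratio was -1.34 in Green and -0.47 in Orange, and -1.35 within numbers 1 to 35 against -0.22 within 36 to 71. GATA1 had means of 397 ± 426 and 354 ± 406 CPM, and NFE2, a globin gene activator, 426 ± 439 and 517 ± 1048 CPM. MPP1, a palmitoylated protein of the red cell membrane, was among the 10 largest losses with a log2 ratio of -0.71, which was -0.08 within numbers 1 to 35 and -0.80 within 36 to 71 (up to 70%). Of 7 globin genes that passed, out of 10, 5 had a lower and 2 a higher mean in the low-complexity group. The median log2 ratio was -0.13, and it was -0.48 within numbers 1 to 35, where all 7 were lower, and 0.06 within 36 to 71 (both up to 70%). HBG2 had means of 2986 ± 1640 CPM in the high- and 3008 ± 1433 CPM in the low-complexity group, and the embryonic globin HBZ 80.7 ± 107 and 35.2 ± 39.4 CPM.

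**Figure D4:**
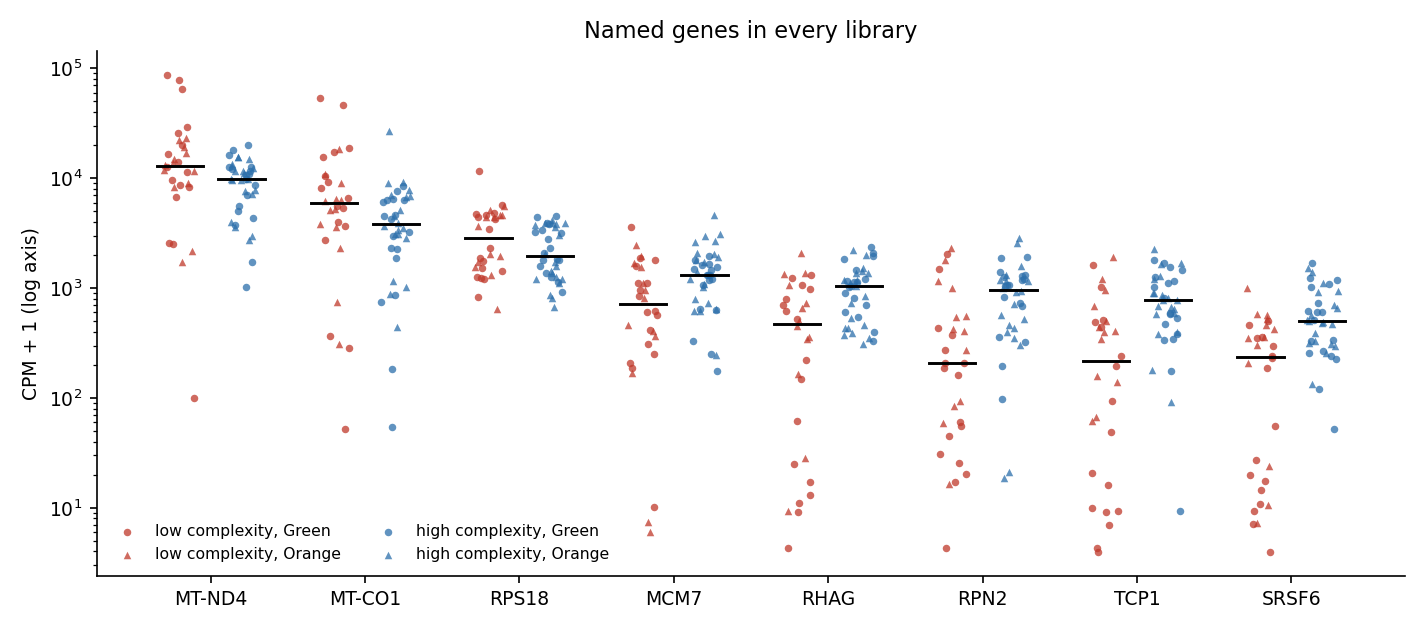
CPM + 1 (log axis) of 8 named genes in every library, low complexity in red (n = 30) and high complexity in blue (n = 38), with shape for the dye and a bar at the group's median. MT-ND4 and MT-CO1 reach their highest values in low-complexity Green libraries, while RHAG, RPN2, TCP1 and SRSF6 have a tail of low-complexity libraries under 100 CPM and all 8 genes overlap between the groups.

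The other large losses in share were spread over functions. For all 10 losses the order of groups follows from how they were chosen. RPN2 (chromosome 20, 35806813 to 35870022), a subunit of the oligosaccharyltransferase that glycosylates proteins in the endoplasmic reticulum, had medians of 966 and 206 CPM and log2 ratios of -1.48 and -0.33 within the lower and the higher numbers (up to 70%). TCP1 (chromosome 6, 160199530 to 160210735), a subunit of the chaperonin that folds actin and tubulin, had medians of 773 and 217 CPM, and there the order was reversed, with -0.32 and -1.93. SRSF6, a splicing factor, had medians of 505 and 234 CPM and log2 ratios of -0.64 and -1.50. HSPA5, the chaperone BiP of the endoplasmic reticulum, had medians of 1390 and 965 CPM and, of the 10 losses, the most even ratios in the number sets, -0.40 and -0.32. CLTC, the clathrin heavy chain, FADS1, a fatty acid desaturase, and CTTN, an actin-binding protein, had log2 ratios of -0.91, -0.72 and -0.46, and that of CTTN was 0.13 within the higher numbers.

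The genes with the largest ratios were found in few libraries. ADPRS, which removes ADP-ribose from serines, was found in 13 of 38 high-complexity libraries, at up to 1037 CPM, and in 1 of 30 low-complexity libraries, at 2.87 CPM (log2 ratio -5.90). AIFM2, a coenzyme Q reductase that protects from ferroptosis, was found in 16 and 3 libraries (log2 ratio -5.28), and POC1A, a centriole protein, in 16 and 1 (-5.42). IL16, a cytokine, and MR1, which presents vitamin metabolites to T cells, were each found in 13 and 3. DHRS1, PCYT2, ABCF3, LINC00355 and ARAP1 completed the 10, at log2 ratios of -4.32 to -5.002. These 10 genes passed the filter through the high-complexity group, and their order of groups follows from how they were chosen. On the other side, LAPTM5, a lysosomal membrane protein of blood cells, was found in 15 high- and 12 low-complexity libraries at up to 80.7 and 1431 CPM, with a log2 ratio of 3.38 that was 5.17 within numbers 1 to 35 and -0.09 within 36 to 71. EFL1, a GTPase of ribosome maturation, was found in 13 and 9 libraries at up to 74.8 and 1694 CPM, and SRP68, of the signal recognition particle, in 20 and 19 libraries at up to 399 and 2474 CPM. TAFAZZIN, which remodels cardiolipin, had a log2 ratio of 3.84 that was 2.27 when Green 33 was left out. ENSG00000263731, TMEM64, SCAMP1, CHST10, ZNF586 and ASTE1 had log2 ratios of 2.70 to 3.74. Leaving out 1 library took TMEM64 from 3.55 to 1.61 (Green 69), ASTE1 from 2.70 to 1.44 (Orange 61) and ZNF586 from 3.72 to 2.34 (Orange 71). With libraries up to 70%, ZNF586 had 0.92 and ENSG00000263731 1.43. TMEM64 and ZNF586 had a lower mean in the low-complexity group within numbers 1 to 35, at -0.76 and -0.45 (up to 70%). In all 10 gains the median CPM was under 8 in both groups, so the means rest on few libraries. All of them but SRP68 had a high-complexity mean under 20 CPM and passed the filter through the low-complexity group. The order of groups of the gains also follows from how they were chosen.

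Of 16 progenitor and megakaryocyte genes 3 passed the filter, 2 of them called lower. RUNX1 passed through its level in the high-complexity group, so nothing is read from these counts. CD33, a sialic acid receptor of myeloid cells, was found in 27 of 38 high- and 11 of 30 low-complexity libraries, with means of 103 ± 188 and 24.2 ± 67.8 CPM. RUNX1, a blood stem cell transcription factor, was found in 24 and 12 libraries, with means of 47.6 ± 136 and 10.1 ± 20.8 CPM. GATA2, which acts in progenitors, had means of 144 ± 124 and 99.8 ± 141 CPM.

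Lists of stress and drug-response genes had median log2 ratios between -0.44 and -0.02, on either side of the -0.14 of all genes. For 12 p53 target and apoptosis genes it was -0.02, with 6 lower, 6 higher and 0 called. Within the lower and the higher numbers (up to 70%) that list had -0.65 and 0.13. Of 29 heat shock and chaperone genes 20 had a lower and 9 a higher mean CPM, with a median log2 ratio of -0.18 and 0 called. HSP90AB1, a cytosolic HSP90, had means of 5283 ± 1615 and 4668 ± 2765 CPM. Median log2 ratios were -0.10 for 22 NRF2 antioxidant genes (2 called lower), -0.07 for 25 genes of the ATF4 stress response (1 called higher) and -0.09 for 8 genes of benzene metabolism and the aryl hydrocarbon receptor (1 called in each direction). Over all genes 2.11% were called higher and 7.61% lower, and nothing is read from so few calls. GSTP1, which conjugates electrophiles to glutathione, had means of 2178 ± 1261 and 2458 ± 2042 CPM, and NQO1, a quinone reductase, 230 ± 295 and 178 ± 264 CPM. Immediate early genes, the first to be transcribed after a stimulus, had a median log2 ratio of -0.44 over the 7 of 23 that passed, with 6 lower and 1 higher, and -0.78 and -0.44 within the lower and the higher numbers (up to 70%). KLF6 in that list was 2-fold lower in both dyes (96.2 ± 191 and 23.7 ± 36.8 CPM, singled out after its values were seen). Of the 25 gene lists 8 had a median log2 ratio above 0 and 17 below, and 23 were below 0 by the mean of log2 values.

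**Figure D5:**
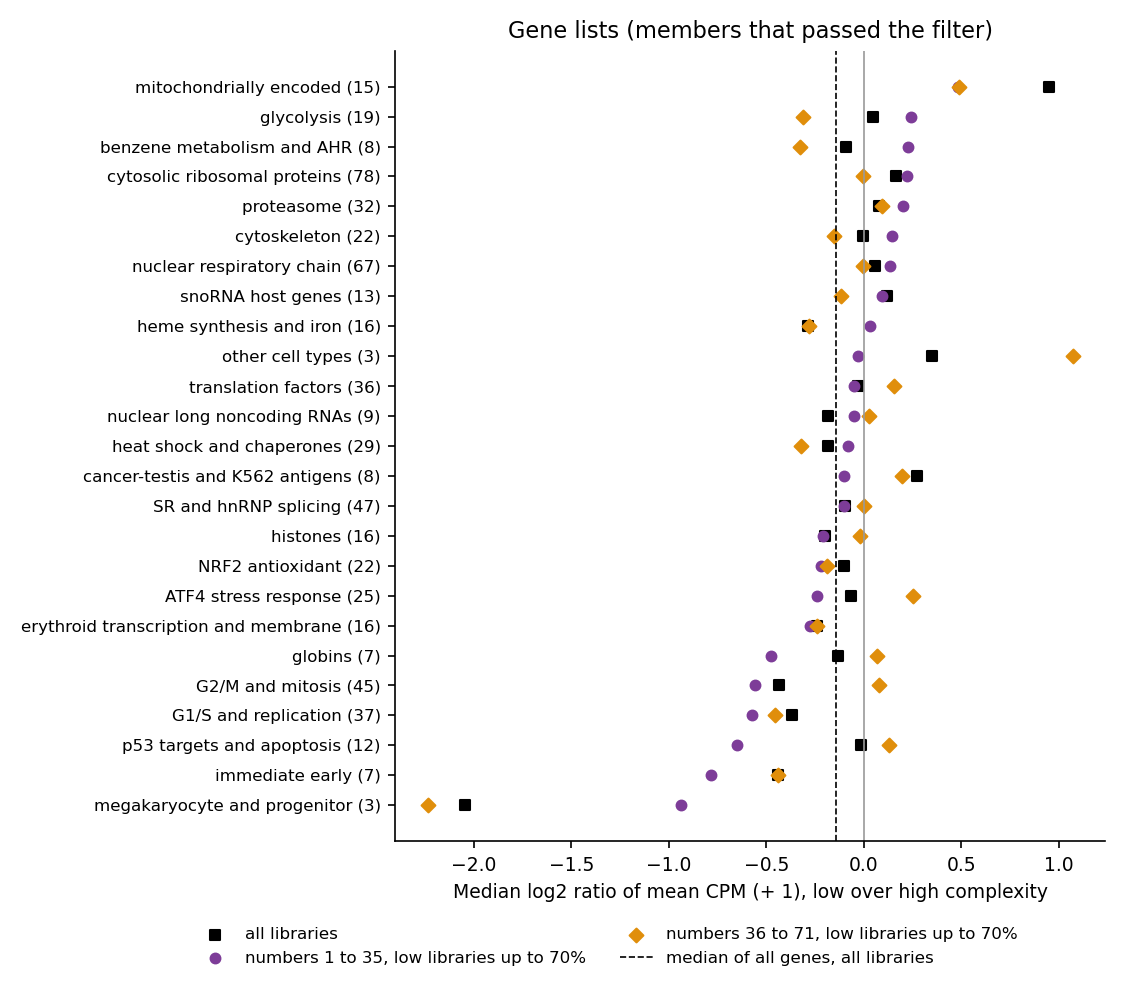
Median log2 ratio of mean CPM between low- and high-complexity libraries for 25 gene lists, with the number of members that passed the filter in parentheses. Squares are all libraries, circles numbers 1 to 35 and diamonds numbers 36 to 71, both with low-complexity libraries up to 70%, and the dashed line is the median of all genes, -0.14. Mitochondrially encoded genes lie at 0.48 and 0.49 within the number sets, while G2/M genes lie at -0.56 and 0.08.

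The same split was made in the other runs, whose libraries the rule did not use. In the Hoechst run, untreated K562 cells at passages given as 90 to 92, 17 libraries were over 60% and 74 at or below it. Their shares reached further, with a median of 94.97% in the 17 libraries, and mitochondrial reads took a median of 77.5% of them against 12.2% in the others. The median log2 ratio over the 6213 genes was -1.91, and -0.92 with the 3 libraries up to 70%, against -0.14 and -0.08 in the benzene run. Mitochondrially encoded genes were the list with the highest ratio there too, at 2.23, or 0.71 up to 70%, while cytosolic ribosomal protein genes had -1.97 and -0.25. In the imatinib run, whose Green cells were untreated and whose Orange cells had 1 µM imatinib for 1 hour, at passages given as 20 to 22, 2 libraries were over 60%, and a split at its median share of 49.6% gave 0.72 for mitochondrially encoded genes, -0.02 for ribosomal protein genes and -0.07 for all genes. The labels do not separate captures or preparations within a run, and these values are set side by side with no test.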

How the data were processed

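Per the labels and the study's methods, the authors captured single K562 cells on a Fluidigm C1, made cDNA with a SMARTer kit and libraries with Nextera XT, trimmed reads with skewer, aligned them to GRCh37 with ERCC sequences with HISAT2 and counted them per Ensembl gene with featureCounts. The submitters' processing notes name Subread 1.5.0, Picard 1.92 and bcl2fastq 1.8.4 and 2.17.1.14. The deposited counts are whole reads per gene without molecular identifiers. The binomial intervals are on numbers of libraries and cover counting error only. The deposited CPM table was not used. In the benzene run 4 columns matched no title and were not used, and 4 labelled libraries had no column and were not analysed here.

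CPM was computed here per 1000000 reads on genes, leaving out 92 ERCC sequences. A gene was found at more than 2 reads. The gene filter was a mean of at least 20 CPM and detection in at least 20% of libraries, and log2 ratios are those of mean CPM with a pseudocount of 1. A call was 2-fold or more in the same direction in both dyes. Libraries were thinned to 300000 reads for detection and variation, while the gene filter and the level where found used the full counts. The 25 gene lists asked for 752 symbols, of which 740 matched, 43 through a synonym. Names, coordinates, exon lengths and GC content came from a GENCODE annotation lifted to GRCh37 that is later than the one used for counting, in which 55665 table genes with 98.9% of reads were found. No pair of libraries held identical counts.

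The named genes, among protein-coding and lncRNA genes only, so without mitochondrial ribosomal RNAs, were the 10 largest gains and 10 largest losses in percentage points of reads with 1 direction in both dyes, the 10 highest and 10 lowest log2 ratios by the smaller within-dye value with 1 direction by mean log2 and up to 70%, and the most abundant members of each list. Members and lists were chosen with earlier results of these data known. No test was run, since the groups were set on the values compared and the labels name no separate cultures within a dye. Alternatives were other limits, filters, pseudocounts, averages and scalings, each dye alone and each library left out. The title-number sets and the leaving out of libraries over 90% were added after the data had been seen. Scripts were tested on simulated data. Python 3.11.15, numpy 2.4.6, pandas 2.3.3, scipy 1.17.1 and matplotlib 3.10.9 were used, and R 4.3.3 with edgeR 4.0.16 for TMM factors only.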

Additional observations from a re-analysis of the deposited data

How the results depend on the processing

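Of the alternatives to the summary values, 141 were labelled the same, 11 moved and 5 reversed. Of those to single genes and gene classes 430, 34 and 12 were, over 59 results in all. A share difference or single gene was labelled the same if its sign held and it moved by less than 1 SD over libraries. For counts the limit was a factor of 1.5 and for medians a log2 of 0.1. The mitochondrial share difference of 5.19 had an SD of 7.92, so any smaller value of the same sign was labelled the same. These tallies therefore do not measure how steady the sizes were. The cause was not tested. The ribosomal protein share difference of 0.707 percentage points was -1.30 at a limit of 65%, where only 2 Orange libraries are of low complexity against 31, and -0.0688 in Green alone. The G2/M share difference of -0.199 was 0.0232 in the higher title numbers up to 70%. The 131 higher genes became 82 with a pseudocount of 10, 4 by mean log2, 212 at a limit of 55% and 229 with TMM on summed reads. The 473 lower genes became 814 at a mean CPM of 5, 841 with no CPM filter, 1256 by mean log2 and 1840 at a limit of 65%. The median log2 ratio of -0.14 was -0.90 by mean log2, -0.32 in the lower title numbers, and 0.0764 and 0.0424 with TMM on summed reads in Green and Orange. That of the Hoechst run, -1.91, was -0.92 up to 70%.

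By mean log2 and in the lower numbers, genes at 1000 CPM or more went from 0.07 to -0.215 and -0.0535, and genes with exons under 1000 bases from 0.09 to -0.365 and -0.0639, the latter also to -0.0326 in the higher numbers up to 70%. The lncRNA median of -0.13 was 0.0370 in the lower numbers up to 70%. CTTN was 0.0598 and 0.127 in the higher numbers with all libraries and up to 70%, LAPTM5 -0.0942 in the higher numbers up to 70%, TMEM64 -0.94 and -0.76 in the lower numbers, and ZNF586 -0.45 in the lower numbers up to 70%.

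Leaving out 1 library at a time gave share differences of 3.95 to 5.56 percentage points for mitochondrially encoded genes, 0.510 to 0.846 for ribosomal proteins, -0.253 to -0.161 for heat shock, -0.0851 to -0.0625 for erythroid, -0.230 to -0.191 for G1/S and -0.224 to -0.173 for G2/M genes. No paired analysis was possible because the result comes from no test and the title numbers do not pair libraries across groups.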
